A study of Equus caballus with 10 samples.

Results

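Sperm RNA of stallions of low and of high fertility was compared within autumn. The arrays were chosen by their season and fertility class fields: stallions 1 and 2 are labelled autumn with high fertility (n = 2) and stallions 5 and 6 autumn with low fertility (n = 2). They are 4 of the 10 arrays of the series, and all 30559 probe sets of the array were compared. The animals were warmblood stallions of breeding age kept at an insemination centre, with 4 ejaculates sampled per stallion, 1 Affymetrix array per stallion and no treatment in the labels. The other 6 arrays, labelled spring with high (stallions 3, 4 and 9) and spring with low fertility (7, 8 and 10), enter the shared estimate of the spread and a side-by-side comparison. The labels limit the contrast in 3 ways. The label on sampling places every stallion in the breeding season, autumn ones included. Stallion 9 has a title that starts as the autumn ones do, although its season field says spring. The sources used here do not give how fertility was graded. Season, stallion, handling and array cannot be separated within a group, since each array is a different animal.

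Mature spermatozoa hardly transcribe. Most of their RNA is left over from spermatids, the haploid cells that pack DNA with transition proteins and protamines and build the tail and acrosome. Semen can also carry leukocytes and epithelial cells of the male tract, whose transcripts would be measured with those of sperm. In bulk RNA, fewer cells of a type and less RNA per cell cannot be told apart.

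The 4 arrays carried the labelled cells' markers. Of 16 sperm and late spermatid markers, 14 lay above the array median on all 4 arrays. The protamine gene PRM1 stood at 12.98 and 11.85 in high and 13.14 and 13.29 in low fertility, on a log2 signal scale with a floor of 4. The acrosome gene ZPBP and the testis lactate dehydrogenase gene LDHC did not lie above the median on every array. The array of stallion 2 stood apart, with a median of 5.10 against 5.44 for stallion 1, 5.49 for stallion 5 and 5.24 for stallion 6, and with 2764 probe sets at the floor against 842 to 2129 on the other 3. Stallions 1 and 2, of the same class, correlated less across probe sets (r = 0.857) than stallion 1 did with stallion 5 (0.896) or 6 (0.886), and stallions 5 and 6 correlated at 0.898. Between stallions 1 and 2, 14.5% of probe sets differed by at least 1 log2 unit, against 7.42% between stallions 5 and 6 and 6.25% between stallions 1 and 5.

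One transcript passed the test between the fertility classes, LOC100061699, a gene with no name beyond this symbol in the platform annotation. Its signal was 6.15 and 6.18 in the high-fertility stallions and 11.14 and 11.03 in the low-fertility stallions of autumn. The classes lay 4.85 log2 units apart at their nearest arrays, and the spring stallions stood near the high-fertility pair, at 5.91, 5.48 and 5.60 in high and 5.43, 6.26 and 5.72 in low fertility. The difference was 4.92 (SE 0.29), a 30.3-fold higher signal in low fertility (limma, adjusted p = 0.00128). This was 1 of 30559 probe sets, or 0.00327%. The size hardly moved with any processing choice, from 4.71 to 5.11. The call was lost in the fit to the 4 autumn arrays alone (adjusted p = 0.319). It was also lost when stallion 5 was left out (adjusted p = 0.0525), and when stallions 2, 9 and 10, whose arrays had the lowest medians, were left out together (adjusted p = 0.382).

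**Figure D1:**
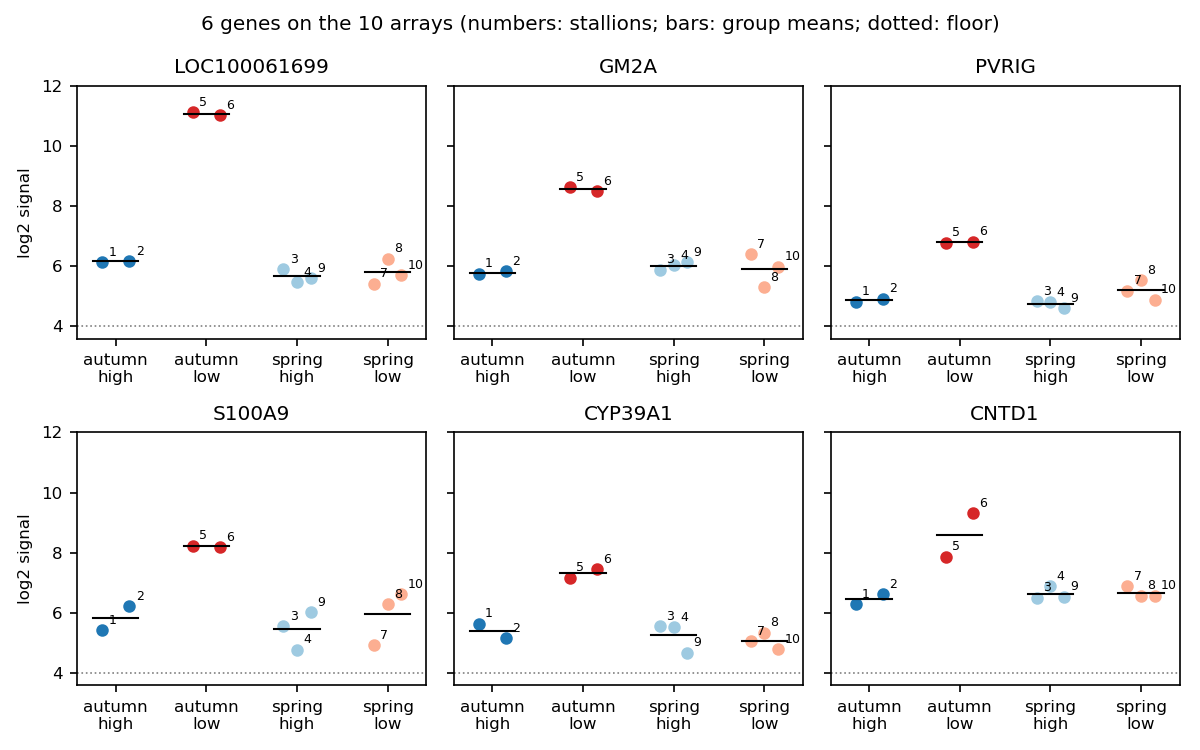
Log2 signal (vertical axis) of 6 genes on the 10 arrays, by season and fertility class; numbers are stallions, bars group means and the dotted line the floor of 4. LOC100061699 stands at 11.14 and 11.03 in stallions 5 and 6 and at or below 6.26 in the other 8, and the autumn low-fertility pair is above the other 8 arrays in all 6 genes. That pair is so placed in 1121 of all 30559 probe sets.

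No other probe set passed, and the second smallest adjusted p was 0.13. At an unadjusted p under 0.05 there were 1295 probe sets (4.24%), of which 860 had the higher mean in low fertility and 435 the lower. Across the array the median difference was 0.08, and 60.1% of probe sets had the higher mean in low fertility. In 5541 probe sets (18.1%) both low-fertility arrays lay above both high-fertility arrays, and in 3228 (10.6%) both lay below. With only 2 arrays per class such separation is common also where classes do not differ, and these counts were not tested. Of these non-overlapping probe sets 63.2% were thus higher, against 48.5% when each array was centred on a common median and 48.8% after quantile normalization. A gap of at least 1 log2 unit between the nearest arrays of the classes was seen for 92 probe sets with low fertility higher (0.301%) and 107 with low fertility lower (0.35%), and all of these still did not overlap after either scaling. The counts at this gap were 63 higher and 145 lower with centred arrays, and 78 and 156 after quantile normalization. With stallion 9 counted as autumn they were 69 higher and 5 lower.

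Among named genes with low fertility higher and non-overlapping classes, the 11 next to LOC100061699 by the size of p did not pass the test (adjusted p between 0.137 and 1). GM2A encodes the activator that presents the ganglioside GM2 to its lysosomal hydrolase. It stood at 5.76 and 5.83 in high and at 8.63 and 8.50 in low fertility, a difference of 2.77 (SE 0.32, adjusted p = 0.137), or 6.82-fold. In spring it stood at 5.89, 6.04 and 6.13 in high and 6.41, 5.32 and 5.99 in low fertility, so that the autumn low-fertility pair was alone at its level, as it was for LOC100061699. An unnamed probe set, 15137738, had a like pattern, with 4.56 and 5.05 against 8.09 and 7.67 and 4.00 to 4.75 in spring (difference 3.075, SE 0.34, adjusted p = 0.13).

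PVRIG encodes an inhibitory receptor of lymphocytes. Its signal was 4.83 and 4.93 in high and 6.79 and 6.82 in low fertility, a difference of 1.925 (SE 0.25, adjusted p = 0.219), with 4.62 to 5.55 in spring. CYP39A1, an oxysterol hydroxylase gene, stood at 5.64 and 5.15 against 7.17 and 7.46 (difference 1.92, SE 0.35, adjusted p = 0.93). CNTD1, a cyclin-like gene needed for meiotic crossovers in mice, stood at 6.28 and 6.63 against 7.87 and 9.31 (difference 2.135, SE 0.42), with 6.51 to 6.88 in spring. In all 3 the low-fertility pair was above the other 8 arrays, but in CNTD1 the members of the pair lay 1.44 apart.

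The remaining genes of this direction differed by 1.25 to 2.225. CLN8, an endoplasmic reticulum gene whose loss causes a lysosomal storage disease, stood at 4.56 and 4.62 against 5.79 and 5.89. OLFM4, a secreted glycoprotein gene of neutrophils and gut epithelium, stood at 4.20 and 4.42 against 5.90 and 5.34. CSTA, which encodes the protease inhibitor cystatin A of epithelia, stood at 4.52 and 4.57 against 5.96 and 5.82. These 3 genes, and FHIP1A and ARF2 named next, lay within 2 units of the floor in every autumn array. There a difference can be understated. FAM216A stood at 4.84 and 4.75 against 6.41 and 7.63, and FHIP1A, whose protein links cargo to the dynein motor, at 4.36 and 4.15 against 5.38 and 5.75. The G protein subunit gene GNG3 stood at 5.45 and 5.84 against 7.0 and 7.44, and the small GTPase gene ARF2 at 4.85 and 4.13 against 5.69 and 5.99. Of the 12 named genes of this direction, LOC100061699 included, 11 had the low-fertility pair above all 8 other arrays. In 4 of the 12 the high-fertility pair lay below all 8 others. Over all 30559 probe sets the former held for 1121 and the latter for 399. The 12 genes were chosen by p among non-overlapping classes, which favours pairs that stand apart.

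Ranked by the gap instead of p, the widest gaps among named genes after LOC100061699 and GM2A were those of ADNP, SPATS1, S100A9 and LOC100063722. ADNP, a chromatin-bound homeobox protein gene, stood at 5.62 and 5.24 in high and 8.03 and 8.76 in low fertility. Its spring values reached from 4.67 to 7.43, and the difference of 2.965 (SE 0.83) did not pass (adjusted p = 1). SPATS1, a spermatogenesis-associated gene, stood at 7.78 and 7.35 against 9.77 and 10.47, and LOC100063722 at 5.77 and 4.90 against 7.69 and 7.86. In spring SPATS1 reached from 6.98 to 9.70, with high-fertility stallions 3 and 4 at 8.94 and 9.70. LOC100063722 reached from 4.67 to 7.29 there. S100A9, a calgranulin gene of neutrophils and monocytes, stood at 5.42 and 6.23 against 8.24 and 8.19 (difference 2.39, SE 0.58, adjusted p = 1), with 4.78 to 6.63 in spring. Its low-fertility pair was thus well above every other stallion.

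S100A9, PVRIG and OLFM4 are also expressed by leukocytes. The list of leukocyte genes, which was drawn up with the values of PVRIG and S100A9 known, averaged 5.53 and 5.26 in high and 5.74 and 5.36 in low fertility, and the classes overlapped. Of its 32 measured genes 17 were higher and 15 lower, with a median of 0.05 that was -0.107 without stallion 2. S100A12, another calgranulin gene, stood at 5.83 and 5.27 against 6.96 and 6.19, with 4.96 to 6.60 in spring. Spring stallion 8, at 6.60, was thus above stallion 6. S100A8, the partner of S100A9, stood at 4.59 and 4.54 against 5.07 and 4.00, and the common leukocyte gene PTPRC at 5.90 and 6.48 against 6.83 and 6.32. TYROBP, a signalling adaptor gene of myeloid cells, went the other way, with 5.45 and 5.71 against 4.98 and 4.36 (difference -0.91, SE 0.28). CD3E was at or near the floor (4.66 and 4.00 against 4.23 and 4.22), as was MS4A1 (4.41 and 4.00 against 4.25 and 4.82). The epithelium list, which holds CSTA, averaged 5.46 and 5.09 against 5.59 and 5.43, so that the classes overlapped. Of its 18 measured genes 14 were higher, but only 10 were above stallion 1. Its median of 0.16 was 0.035 without stallion 2. The part of other cells in these differences was not tested.

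**Figure D2:**
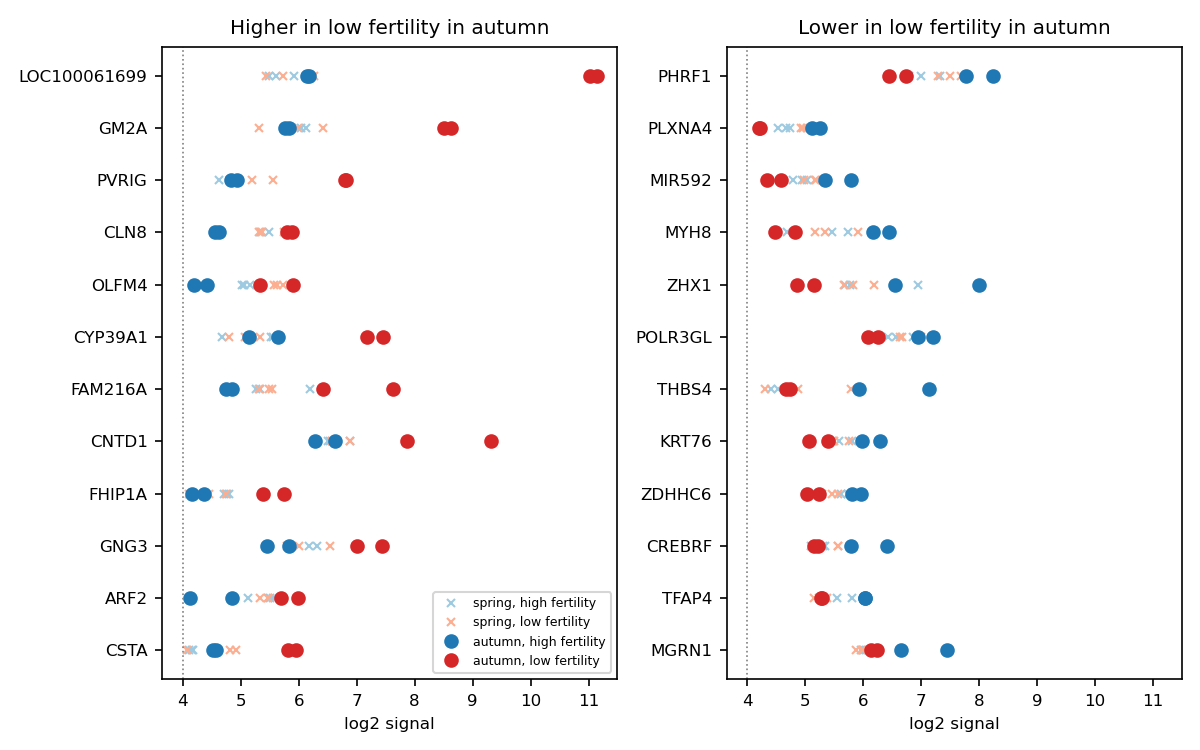
Log2 signal (horizontal axis) of the 12 named genes per direction with the smallest p, 1 row per gene; circles are the 4 autumn arrays, crosses the 6 spring arrays and the dotted line the floor. In 11 of 12 rows on the left the autumn low-fertility pair lies above all other arrays, and in 10 of 12 rows on the right the autumn high-fertility pair does. Over all 30559 probe sets the low-fertility pair does so in 1121 and the high-fertility pair in 592. The choice of the genes favours such pairs.

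The 12 named genes with low fertility lower had smaller differences, from 0.74 to 2.27 in size, and none passed (limma, adjusted p = 1 for each). PHRF1, a ubiquitin ligase gene, stood at 8.23 and 7.77 in high and 6.44 and 6.74 in low fertility (difference -1.41, SE 0.28). PLXNA4, a semaphorin co-receptor gene, stood at 5.12 and 5.25 against 4.19 and 4.21 (difference -0.985, SE 0.19). The microRNA gene MIR592 stood at 5.79 and 5.33 against 4.57 and 4.34. In these 3 the spring arrays lay between the autumn classes.

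ZHX1, a zinc finger repressor gene, had the largest difference of the 12, with 7.99 and 6.54 against 5.14 and 4.85 (difference -2.27, SE 0.53), but its high-fertility pair lay 1.45 apart. The muscle myosin heavy chain gene MYH8 stood at 6.17 and 6.45 against 4.48 and 4.82, and the matrix protein gene THBS4 at 7.13 and 5.93 against 4.67 and 4.74. The RNA polymerase III subunit gene POLR3GL stood at 6.95 and 7.20 against 6.08 and 6.25. The keratin gene KRT76, the palmitoyltransferase gene ZDHHC6, the stress regulator gene CREBRF, the transcription factor gene TFAP4 and the ubiquitin ligase gene MGRN1 differed by -0.905, -0.74, -0.92, -0.745 and -0.865. SLC52A2, a riboflavin transporter gene, and the myosin gene MYH7B had wide gaps but larger p. SLC52A2 stood at 7.67 and 6.66 against 4.79 and 5.29, and MYH7B at 7.33 and 7.19 against 5.99 and 5.88. Spring low-fertility stallions reached higher still, stallion 8 at 8.15 for SLC52A2 and stallion 7 at 7.46 for MYH7B. Among the 12 genes chosen by p, SLC52A2 and MYH7B not included, 10 had the high-fertility pair above all 8 other arrays. In 6 of the 12 the low-fertility pair lay below all 8 others. Over all 30559 probe sets the former held for 592 and the latter for 218. Here too the choice by p among non-overlapping classes favours pairs that stand apart. With stallion 9 counted as autumn, the classes of 7 of these 12 genes still did not overlap, against 12 of 12 genes in the higher direction. The directions differed alike over all probe sets, where 1320 of 3228 lower and 4276 of 5541 higher ones still did not overlap.

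The 2 directions differed in annotation. Of the 92 probe sets higher in low fertility by a gap of at least 1, 59 (64.1%) had a gene symbol. Of the 107 lower by such a gap only 6 (5.61%) did, namely MYH7B, MYH8, PHRF1, SLC52A2, THBS4 and ZHX1, while 101 were unnamed. Over all probe sets 54.9% had a symbol. Counting stallion 9 as autumn left 52 of the 107 without overlap and 5 with such a gap. In the higher direction it left 84 of the 92 and 69. An added array can only narrow these gaps, and that of stallion 9 had a low median (5.07) with 2775 probe sets at the floor. The part of its season field in this loss was not tested. All 9 probe sets that were lower by a gap of at least 2 were unnamed. The widest gap among them was that of probe set 15024317, at 8.39 and 7.77 in high and 5.04 and 4.85 in low fertility, a difference of -3.135 (SE 0.79, adjusted p = 1). In spring this probe set stood at 5.27, 7.45 and 5.68 in high and at 5.40, 7.59 and 6.18 in low fertility, so that stallions 4 and 8, of opposite classes, stood near the autumn high-fertility level. The 101 unnamed probe sets as a set had medians of 7.43 and 6.86 in stallions 1 and 2, 5.21 and 5.14 in stallions 5 and 6, 6.37 in stallion 4, 6.89 in stallion 8, and 5.22 to 5.84 in the other 4 spring stallions. Over the 6 spring arrays, which did not choose them, the median correlation between pairs of them was 0.65, and that between pairs of the 92 higher probe sets was 0.31. The same value over all probe sets was not computed. These correlations share their arrays, and the 101 probe sets held 95 distinct rows of values. Of the probe sets lower in low fertility, 14988232, also unnamed, had the smallest p, at 6.21 and 6.11 against 4.79 and 4.00 (difference -1.765, SE 0.26, adjusted p = 0.463).

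**Figure D3:**
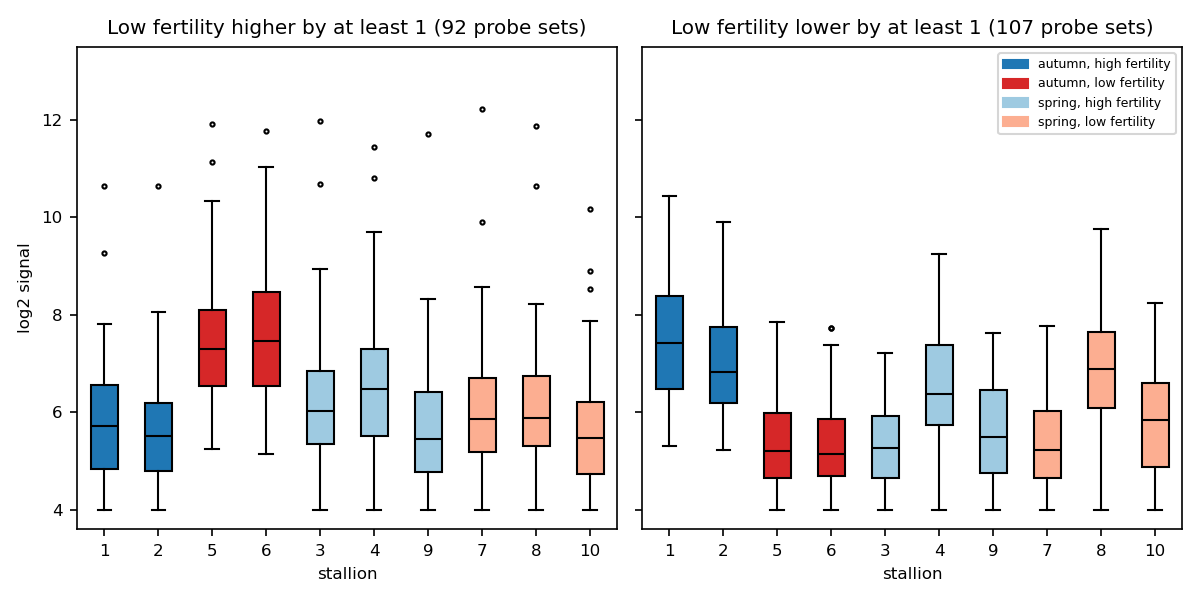
Log2 signal (vertical axis) by stallion (horizontal axis, coloured by group) of the 92 probe sets with low fertility higher (left) and the 107 with it lower (right) by a gap of at least 1 in autumn; boxes show quartiles, whiskers reach 1.5 times the box height at most, and points lie beyond. The autumn boxes differ by the choice of the probe sets; on the right, stallions 4 and 8 stand above the other 4 spring stallions.

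The same comparison in spring gave other values. Over all probe sets the autumn and the spring difference correlated at -0.139, a description across probe sets of 2 contrasts that share no array. Of the 92 probe sets higher in low fertility in autumn by a gap of at least 1, 31 had the higher mean in low fertility in spring too, where 52.3% of all probe sets did. Their median difference was 1.63 in autumn and -0.20 in spring. Of the 107 lower ones 27 were lower in spring too, where 46.9% of all probe sets were, with a median difference of -1.825 in autumn and 0.26 in spring. In the test of the difference between the seasons, 1 of 30559 probe sets passed (0.00327%), again LOC100061699. Its autumn difference exceeded its spring difference of 0.14 by 4.78 (SE 0.375, adjusted p = 0.0148). This call was lost without stallion 2, 3, 4, 5, 9 or 10 and without stallions 2, 9 and 10 together. GM2A had the next smallest p among named genes, with a spring difference of -0.11 and an autumn minus spring value of 2.88 (SE 0.42, adjusted p = 0.564). FHIP1A had 1.63 (SE 0.335) and CD70 1.66 (SE 0.35), the latter through its spring difference of -1.49. In the other direction stood DBN1 at -1.94, PHRF1 at -1.87, PLXNA4 at -1.32 and MIR592 at -1.30, all with adjusted p = 1.

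**Figure D4:**
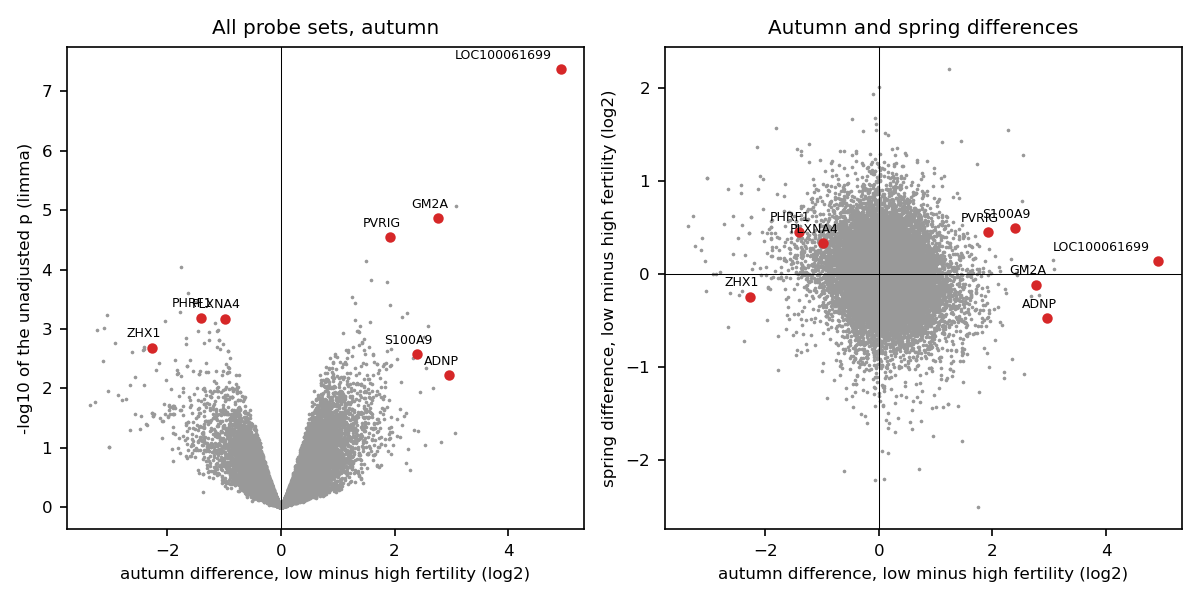
Left, autumn difference (low minus high fertility, log2, horizontal) against -log10 of the unadjusted limma p (vertical) for all 30559 probe sets; right, the autumn (horizontal) against the spring difference (vertical). LOC100061699 lies apart in both, at 4.92 in autumn and 0.14 in spring.

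The genes whose signal followed LOC100061699 most closely over the 10 arrays were PVRIG (r = 0.957), CYP39A1 (r = 0.947) and RNASEH2B (r = 0.94). RNASEH2B, a subunit gene of ribonuclease H2, stood at 4.17 and 4.24 in autumn high, at 4.68 and 4.96 in autumn low fertility and at 4.00 to 4.28 in spring. These correlations rest on the autumn low-fertility pair and describe 10 arrays.

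Gene lists were then set beside these results. Of 791 listed genes 642 were measured, and 0 of them passed the test. An unadjusted p under 0.05 was reached by 34 (5.3%, against 4.24% of all probe sets), 33 of them higher and 1, TYROBP, lower. A gap of at least 1 was seen for 8 listed genes, all higher in low fertility, against 0.301% of all probe sets: GM2A, CLN8, PVRIG, S100A9, CSTA, H2BC1, CREM and SPAG6. The first 5 of these were listed with their values known. Of 23 lists 22 had a positive median difference, but in 22 of 23 the array of stallion 2 had the lowest mean of the 4. Set against stallion 1 alone, 12 of the 23 medians were positive, and against stallion 2 alone all 23. With centred arrays or after quantile normalization 17 were positive.

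The sperm chromatin list had the largest median, 0.73, with 12 of 14 measured genes higher. Its mean was 8.88 and 7.95 in high and 8.87 and 9.07 in low fertility, so that stallion 1 was level with stallion 5, and without stallion 2 the median was 0.03. H2BC1, a testis histone gene, differed also from stallion 1, with 6.01 and 5.61 against 7.48 and 7.38 (difference 1.62, SE 0.45, adjusted p = 1). The transition protein gene TNP2 did not, with 12.27 and 10.62 against 12.23 and 12.79. BRDT, which reads acetylated histones, stood at 6.39 and 6.07 against 7.14 and 6.74, and TSPYL1 at 6.95 and 6.80 against 5.66 and 6.69.

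Of 35 late spermatid genes 32 were higher in low fertility, with a median of 0.615, and in 13 of them (37.1%) the classes did not overlap with low fertility higher, against 18.1% of all probe sets. The list mean was 8.02 and 7.04 against 7.99 and 8.36, and without stallion 2 the median was 0.06, with 20 of 35 genes above stallion 1. Its median difference in spring was -0.213, with list means of 6.91 to 8.76 on the spring arrays. CREM, the activator of postmeiotic genes, stood at 7.70 and 6.96 against 8.72 and 9.32 (difference 1.69, SE 0.67, adjusted p = 1). TSKS, whose product the testis-specific kinases phosphorylate, stood at 6.53 and 6.03 against 7.27 and 7.58. SPATC1 stood at 7.54 and 7.18 against 8.34 and 9.48, and SPATA3 at 9.07 and 8.32 against 9.68 and 10.63.

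Tail genes were mixed. The flagellum and axoneme list had a median of 0.305, with 31 of 38 genes higher. In 15 of the 38 (39.5%) low fertility lay above high without overlap, against 18.1% of all probe sets. Without stallion 2 the median was 0.002. SPAG6, a protein gene of the axoneme's central pair, stood at 6.66 and 6.11 against 7.73 and 8.27 (difference 1.615, SE 0.40, adjusted p = 1), and its partner SPAG16 at 6.68 and 6.21 against 7.47 and 7.76. The dynein genes DNALI1 and DNAH17 stood at 6.10 and 5.99 against 6.92 and 6.77, and at 6.33 and 5.92 against 7.0 and 6.78. The outer dense fibre and fibrous sheath list had a median of 0.31 that turned to -0.18 without stallion 2. Of its 21 genes 3 (14.3%) lay higher without overlap, SPAG5, TEKT1 and GSTM3, a share near the 18.1% of all probe sets, and with centred arrays 5 did. AKAP4, the main fibrous sheath protein gene, stood at 10.52 and 8.70 against 9.72 and 9.98.

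**Figure D5:**
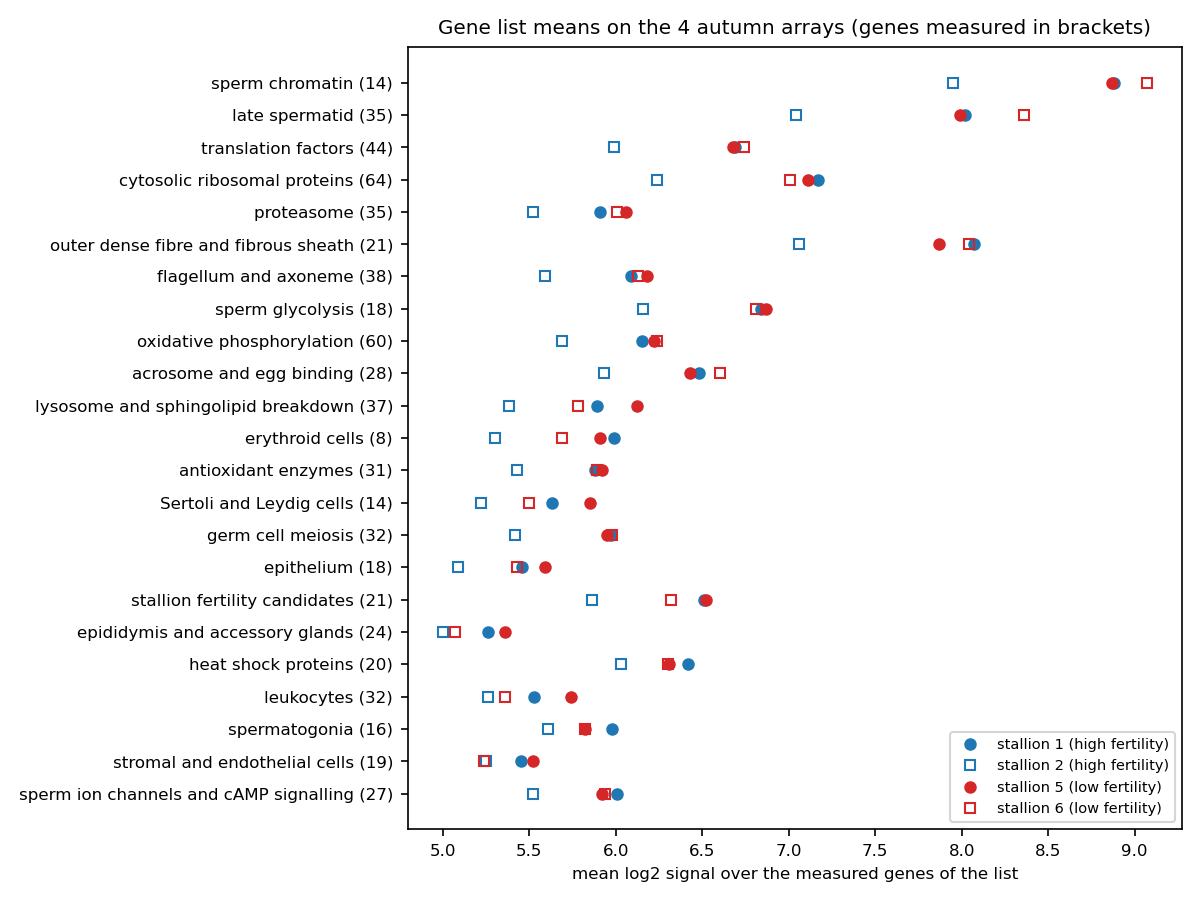
Mean log2 signal (horizontal axis) over the measured genes of each list (rows, ordered by the median autumn difference) on the 4 autumn arrays. Stallion 2 (open blue squares) has the lowest mean in 22 of 23 lists; the mean of the late spermatid list, for example, is 8.02 in stallion 1 and 7.04 in stallion 2.

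Genes of egg binding and energy supply were mostly higher in low fertility, while those of ion transport were evenly split. Without stallion 2 the medians were 0.083 for the acrosome list, 0.025 for ion channels, 0.005 for glycolysis and 0.075 for oxidative phosphorylation. The acrosome and egg binding list had a median of 0.29 (23 of 28 higher), with the fusion protein gene family member IZUMO4 at 8.73 and 8.36 against 9.07 and 9.36. The ion channel and cAMP list had a median of 0, with 13 higher and 13 lower. Within it KCNU1, the sperm potassium channel gene, stood at 6.02 and 5.29 against 6.74 and 7.46 (difference 1.445, SE 0.54, adjusted p = 1), and ADCY10, the soluble adenylyl cyclase gene, at 4.93 and 5.01 against 5.46 and 5.60. In the glycolysis list (median 0.29, 14 of 18 higher) the phosphoglycerate mutase gene PGAM2 stood at 7.16 and 6.71 against 7.95 and 7.87 and the phosphofructokinase gene PFKP at 6.10 and 5.80 against 7.37 and 6.83. In the oxidative phosphorylation list (median 0.29, 50 of 60 higher) the complex I gene NDUFA10 stood at 6.27 and 5.65 against 7.17 and 7.39. These named genes were chosen by p, which favours classes that do not overlap. In each the low-fertility pair lay above both high-fertility stallions. Over the whole lists this held for 6 of 28 acrosome genes (21.4%) and 9 of 27 ion channel genes (33.3%). It held for 6 of 18 glycolysis genes (33.3%) and 22 of 60 oxidative phosphorylation genes (36.7%), against 18.1% of all probe sets. The reverse held for 2, 0, 2 and 4 genes of these lists, against 10.6% of all probe sets.

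In lists of general cell functions stallion 2 again had the lowest mean. The cytosolic ribosomal protein list had 57 of 64 genes higher, with a median of 0.33, but only 24 of 64 above stallion 1 and a median of -0.12 without stallion 2. Its means were 7.17 and 6.24 in high and 7.11 and 7.01 in low fertility. Translation factors had a median of 0.385 (37 of 44 higher) and 0.05 without stallion 2, with EIF3L at 5.45 and 4.80 against 6.08 and 5.96. The proteasome list had a median of 0.31 (28 of 35 higher) and kept 0.115 without stallion 2, with 14 genes of 35 higher without overlap, against 18.1% of all probe sets. Among them was PSMC1, at 6.12 and 5.98 against 6.93 and 6.67. The lysosome and sphingolipid list, drawn up with the values of GM2A and CLN8 known, had a median of 0.285 (26 of 37 higher) and -0.075 without stallion 2. Apart from GM2A and CLN8, its genes with the smallest p were GALC, a galactosylceramidase gene, at 6.34 and 6.32 against 6.97 and 7.31, and ACP2, a lysosomal acid phosphatase gene, at 6.08 and 6.22 against 6.48 and 6.73.

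The heat shock list had a median of 0.05 (12 of 20 higher), with the chaperone gene HSPA4 at 5.33 and 5.17 against 5.81 and 5.87. The antioxidant list had a median of 0.22 (22 of 31 higher), with PRDX6 at 6.91 and 5.39 against 7.43 and 8.31. Without stallion 2 these medians were -0.117 and -0.02. The stallion fertility candidates had a median of 0.155 (14 of 21 higher) that turned to -0.215 without stallion 2. Among them 3 of 21 (14.3%) lay higher without overlap, a share near the 18.1% of all probe sets: DCP2, an mRNA decapping enzyme gene, ESR2 and ACR. The classes of ACR were only 0.01 apart, at 5.87 and 6.08 against 6.09 and 6.17. DCP2 stood at 6.04 and 5.49 against 6.85 and 7.36 (difference 1.34, SE 0.43, adjusted p = 1). CRISP3 (5.01 and 4.96 against 5.13 and 4.34), FKBP6 (5.48 and 4.98 against 5.96 and 5.20) and PLCZ1, the sperm factor that activates the egg (7.17 and 5.94 against 6.47 and 7.20), overlapped between the classes.

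Earlier germ cells and somatic cells were covered by the remaining lists. The meiosis list had a median of 0.20 (24 of 32 higher), with MEIOB, a meiotic recombination gene, at 5.09 and 5.52 against 6.45 and 7.09, and HORMAD2, a gene of the meiotic chromosome axis, at 7.61 and 6.91 against 8.55 and 9.03. The spermatogonia list had a median of 0.04 (9 of 16 higher). Without stallion 2 these medians were 0.035 and -0.148. The epididymis and accessory gland list (median 0.07, 14 of 24 higher), the stromal and endothelial list (0.025, 10 of 19), the erythroid list (0.265, 5 of 8) and the Sertoli and Leydig cell list (0.21, 11 of 14) held no gene with an unadjusted p under 0.05 except STAR, the steroidogenic acute regulatory protein gene, at 4.83 and 4.04 against 5.32 and 5.15. Its adjusted p was 1. Without stallion 2 the medians of these lists were -0.04, 0, -0.062 and 0.14.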

How the data were processed

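Sperm RNA of 10 stallions was measured on 1 Affymetrix array each. The authors deposited log2 signals per probe set with a floor of 4; GCOS 1.1.1 and Affymetrix Expression Console 1.1 are named in the submitters' processing notes without their roles, and the sources used here do not give the background correction, summarisation or scaling. Values were used as deposited. The number of arrays limits the precision, and depth does not apply.

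limma 3.58.1 (R 4.3.3) fitted a mean for each of the 4 season and fertility groups to all 10 arrays (6 residual and 2.955 prior degrees of freedom), with eBayes moderation. Low minus high fertility within autumn, within spring and their difference were contrasts, two-sided, and a probe set was called at p under 0.05 after Benjamini-Hochberg adjustment across the 30559 probe sets. The series names a 2-way ANOVA, of which this is the form with interaction. Control probe sets are not marked and stayed in. The fit was tested on simulated data.

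The platform annotation gave 16789 probe sets 1 symbol, 343 several and 13427 none; symbols can be old, and none was named from several. Named genes are, per direction, the 12 with the smallest p among non-overlapping classes, the 6 with the widest gap and up to 4 for the difference between the seasons; up to 4 per list by p, on the probe set of highest mean per gene; the 3 probe sets of smallest p per direction, whatever their annotation; and the 3 genes most like LOC100061699 by Pearson r. Others (ZPBP, TNP2, AKAP4, CRISP3, PLCZ1, S100A8, PTPRC, CD3E, MS4A1, PRM1, ESR2, ACR and probe set 15024317) and those in the closing observations were chosen after their values were seen. The contrast, the rules and the lists were chosen with earlier results of these data known. Alternatives are given in the closing section. P-values measure the spread between stallions and handling together.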

Additional observations from a re-analysis of the deposited data

Results flagged for a closer look

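The autumn difference of LOC100061699 exceeded its spring difference by 4.78 log2 units (SE 0.375, limma, adjusted p = 0.0148), a difference between the seasons that the test of the difference itself called. Stallions 5 and 6 stood at 11.14 and 11.03 and the other 8 at 5.43 to 6.26. No group holds 4 or more arrays, so arrays far from the rest of their group could not be looked for by the gap-to-range rule.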

How the results depend on the processing

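For autumn, LOC100061699 was the only probe set called in every planned setting that is not named here. The count for autumn was 0 in the fit to the 4 autumn arrays (1195 at an unadjusted p under 0.05, LOC100061699 at 4.92), 0 without stallions 2, 9 and 10 (1259 unadjusted, LOC100061699 at 4.935) and 2 without moderation. Leaving out 1 stallion at a time gave 0 to 24 calls: 0 without stallion 5 (1023 unadjusted), 2 without stallion 1 or 8 and 24 without stallion 6, with LOC100061699 between 4.865 and 4.975. A class left with 1 array is assumed to vary like the others. GM2A passed without stallion 8 (adjusted p = 0.0315). Calls for the difference between the seasons numbered 0 without stallions 2, 9 and 10 (1308 unadjusted) and 0 to 15 without 1 stallion at a time, 15 of them without stallion 6; the count was 0 without stallion 2, 3, 4, 5, 9 or 10 (957 to 1446 unadjusted). Non-overlapping probe sets with low fertility lower numbered 5103 after quantile normalization, 4863 with centred arrays and 1320 with stallion 9 in autumn. Where the mean had to be at least 6, there were 749 lower and 1645 higher among 7694 probe sets. These were 9.73% and 21.4%, against 10.6% and 18.1% of all probe sets. The gap of at least 1 was kept by 69 higher and 5 lower probe sets with stallion 9 in autumn. The cause of these shifts was not tested. Values near the floor of 4 are limited in how low they can be measured.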

Other observations

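The array of stallion 5 held the most probe sets that stood at least 2 log2 units above all 9 other arrays, 40, against 3 to 11 on each of the others. Of these 40, 11 had a gene symbol, where 54.9% of all probe sets did. LOC100051071 stood at 9.21 there against at most 4.81 on the others, KERA, a corneal proteoglycan gene, at 7.35 against 4.30, and OVOL1, a transcription factor gene of epithelia and germ cells, at 7.52 against 4.63. TSHZ2 stood at 8.23 against 5.77 and FBXO40, a muscle ubiquitin ligase gene, at 7.78 against 5.14. Olfactory receptor genes were among them, OR3A2D at 7.62 against 4.58, OR7H9 at 7.42 against 4.61, OR4A47I at 8.29 against 5.34 and OR5P97 at 6.78 against 4.66. The share of this large gene family over all probe sets was not computed. On the array of stallion 6, which shares the autumn low-fertility label, 3 probe sets stood out in this way, among them that of FTL, the ferritin light chain gene, at 9.22 against at most 6.43. On that of stallion 2, 11 did, among them that of GC, the vitamin D-binding protein gene, at 9.95 against at most 5.57. On that of stallion 1, 5 did, none with a symbol.

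Of the 24 probe sets called for autumn when stallion 6 was left out, all higher in low fertility, 22 stood at least 2 log2 units higher in stallion 5 than in every other stallion.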
